A study of Mus musculus with 6 samples.

Results

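The 10 genes described here are the CIP/KIP cyclin-dependent kinase inhibitors Cdkn1a, Cdkn1b and Cdkn1c, the growth arrest and DNA damage genes Gadd45a, Gadd45b and Gadd45g, the D-type cyclins Ccnd1, Ccnd2 and Ccnd3, and the cyclin G gene Ccng1. They were taken by symbol from the platform table, out of 18193 genes with a symbol of their own there, and had 26 probe sets, of which 16 were other than the brightest of their gene. The group was drawn up around a higher Cdkn1a signal in hearts labelled as knockout of ERRα, the estrogen-related receptor encoded by Esrra that regulates genes of energy metabolism, so the differences of the 10 genes between the genotypes are given as a description and without p-values. The question was whether the other growth arrest genes moved with Cdkn1a. Cdkn1a rose to 2.40 times the WT signal and Gadd45a fell to 59.0% of it, while the other inhibitors, Gadd45b, Gadd45g, the D cyclins and Ccng1 did not pass the threshold. The Gadd45a call was lost in 11 of 19 alternative settings and that of Cdkn1a in 2. Gadd45g was at 1.54 times the WT signal, with no overlap between the groups, as for 6.81% of all genes tested with KO above WT. RNA came from 3 hearts labelled as ERRα knockout (KO) and 3 wild-type (WT) hearts of male mice under basal conditions, with 1 Affymetrix Mouse430_2 array per heart. The strain was given as C57BL/6J and the age as 2 to 3 months for all mice but WT 1, whose labels carry neither. No source used here says how the null allele was made or whether the mice were littermates. These are whole hearts, in which fewer cells of a type and less RNA per cell cannot be told apart.

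The CIP/KIP proteins p21, p27 and p57 bind complexes of cyclins with their kinases and hold cells in G1; the gene of p21, Cdkn1a, is the best known transcriptional target of the tumour suppressor p53. GADD45 proteins are small stress-induced proteins that bind the kinase MAP3K4, PCNA and the kinase CDK1. D-type cyclins activate CDK4 and CDK6 and so drive phosphorylation of the retinoblastoma protein, while cyclin G1 is another p53 target that recruits a phosphatase to MDM2. Most myocytes of the adult mouse heart have left the cell cycle.

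The RefSeq promoter table (GRCm38.p6) held windows for 7 of the 10 genes, 9 windows in all. Cdkn1a is at chromosome 17 from 29090979 to 29100722, Ccng1 at chromosome 11 from 40748552 to 40755309, Gadd45a at chromosome 6 from 67035096 to 67037407 and Gadd45g at chromosome 13 from 51846675 to 51848475. The 250 bases before each start are printed for both starts of Cdkn1a, for Gadd45a and Gadd45g, whose KO and WT signals also did not overlap, and for Ccng1, which shares with Cdkn1a a p53 site. In the windows of Cdkn1a start 1 and of Ccng1, capitals mark a match to the p53 full-site consensus of 20 bases with no spacer and at most 1 mismatch. In the windows of Cdkn1a start 2 and Gadd45a they mark GGGCGG on either strand, and in that of Gadd45g they mark CACGTG.
Cdkn1a start 1, chr17:29090729-29090978, plus strand: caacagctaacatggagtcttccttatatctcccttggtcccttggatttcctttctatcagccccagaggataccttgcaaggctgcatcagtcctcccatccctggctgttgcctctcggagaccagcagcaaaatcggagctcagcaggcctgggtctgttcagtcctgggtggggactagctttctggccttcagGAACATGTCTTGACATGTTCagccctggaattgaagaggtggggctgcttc
Cdkn1a start 2, chr17:29093519-29093768, plus strand: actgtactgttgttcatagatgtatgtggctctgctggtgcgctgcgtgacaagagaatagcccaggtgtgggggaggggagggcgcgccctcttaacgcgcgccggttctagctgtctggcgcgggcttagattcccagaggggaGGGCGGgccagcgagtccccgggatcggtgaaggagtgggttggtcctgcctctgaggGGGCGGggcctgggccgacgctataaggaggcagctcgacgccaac
Ccng1, chr11:40755287-40755536, minus strand: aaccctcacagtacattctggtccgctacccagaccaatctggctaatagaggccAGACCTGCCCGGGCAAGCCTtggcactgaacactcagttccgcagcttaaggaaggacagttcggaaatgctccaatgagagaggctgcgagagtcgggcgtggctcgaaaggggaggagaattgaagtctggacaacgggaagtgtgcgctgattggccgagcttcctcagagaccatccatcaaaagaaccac
Gadd45a, chr6:67037408-67037657, minus strand: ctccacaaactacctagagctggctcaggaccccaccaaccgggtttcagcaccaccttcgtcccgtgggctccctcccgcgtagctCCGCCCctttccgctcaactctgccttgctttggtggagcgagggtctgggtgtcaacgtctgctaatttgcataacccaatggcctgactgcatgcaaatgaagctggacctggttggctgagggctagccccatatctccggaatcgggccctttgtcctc
Gadd45g, chr13:51846425-51846674, plus strand: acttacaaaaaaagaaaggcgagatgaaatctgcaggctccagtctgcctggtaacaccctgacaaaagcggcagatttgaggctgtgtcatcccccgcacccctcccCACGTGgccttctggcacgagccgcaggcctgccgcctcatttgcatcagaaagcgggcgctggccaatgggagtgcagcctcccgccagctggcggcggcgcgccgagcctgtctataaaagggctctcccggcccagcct

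The p53 site of Cdkn1a, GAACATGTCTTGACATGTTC at chr17:29090928-29090947, began 51 bases before the first start, and that of Ccng1, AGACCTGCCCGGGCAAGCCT at chr11:40755462-40755481, began 195 bases before its start. Such a match was present in 25 of the 32851 windows in the table (0.0761%). This search was added after the sequences had been read. The ERR response element TCAAGGTCA, searched on both strands, was in none of the 9 windows and in 0.387% of all windows. Its shorter core AAGGTCA, which lies within it, was in 1 window, that of the upstream Ccnd3 start, and in 4.08% of all windows. GGGCGG was in 32.7% and CACGTG in 6.02% of all windows of this length. These are matches of letters only, and nothing about the binding of a factor was measured.

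Esrra itself gave signals of 180.1, 24 and 18 in the libraries labelled KO 1 to 3, against 368.1, 394.4 and 349.1 in WT 1 to 3 (limma log2 difference -2.58, SE 0.283, adjusted p = 3.8e-09 among the genes tested). The library labelled KO 1 stood at 48.6% of the WT mean and goes against its label, while KO 2 and KO 3 stood at 6.48% and 4.86%. Without WT 1 the Esrra difference was -2.59 and its adjusted p 0.0675 in limma. WT 1 was also the brightest array, with a trimmed mean signal of 72.1, against 57.1 to 63.4 in the other 5 hearts. Of 12946 genes tested, 2.97% passed an adjusted p of 0.05, 1.78% as higher and 1.18% as lower in the libraries labelled KO.

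Cdkn1a, the p21 gene, was higher in the libraries labelled KO. Its brightest probe set gave 127.3, 182.2 and 319.3 in KO 1 to 3, against 103.7, 76 and 82 in WT 1 to 3. Every KO library lay above every WT heart, with KO 3 highest and KO 1, the library with residual Esrra signal, nearest to WT. The means were 209.6 ± 98.9 in KO and 87.2 ± 14.6 in WT (SD, n = 3 each), a ratio of 2.40. On the log2(signal + 16) scale, which understates changes of dim genes, the difference was 1.05 (SE 0.198, 95% interval 0.65 to 1.44). Without KO 1 it was 1.33 and without KO 3 it was 0.72. It passed the threshold in both of those fits but not without WT 1, where it was 1.16 (SE 0.276). These fits differ in more than the hearts used. Those without KO 1 and without KO 3 took the variance wholly from the genes together. The fit without WT 1 shared less variance between genes (7.2 prior degrees of freedom, against 45.6 with all hearts). The gene's dim second probe set gave 4.2, 15.9 and 20.9 in KO, against 2.7, 4.9 and 2.8 in WT. Its KO 2 and KO 3 signals exceeded all 3 WT signals and KO 1 fell among them, and it lay under the filter on dim probe sets.

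The other CIP/KIP genes did not pass the test. Cdkn1b, the p27 gene, gave 135.1, 105.3 and 115.2 in KO and 143.5, 78.3 and 98.9 in WT. These signals overlapped, with WT 1 the highest and WT 2 the lowest of the 6. The log2 difference was 0.16 (SE 0.181, 95% interval -0.20 to 0.52), and it was 0.36 without WT 1 and 0.07 without KO 1. Its second, dim probe set was at -0.11. Cdkn1c, the imprinted p57 gene, gave 78.4, 71.1 and 82.9 in KO and 100.4, 80.2 and 91.7 in WT. The groups overlapped through WT 2, and the difference was -0.19 (SE 0.171, 95% interval -0.53 to 0.15).

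**Figure D1:**
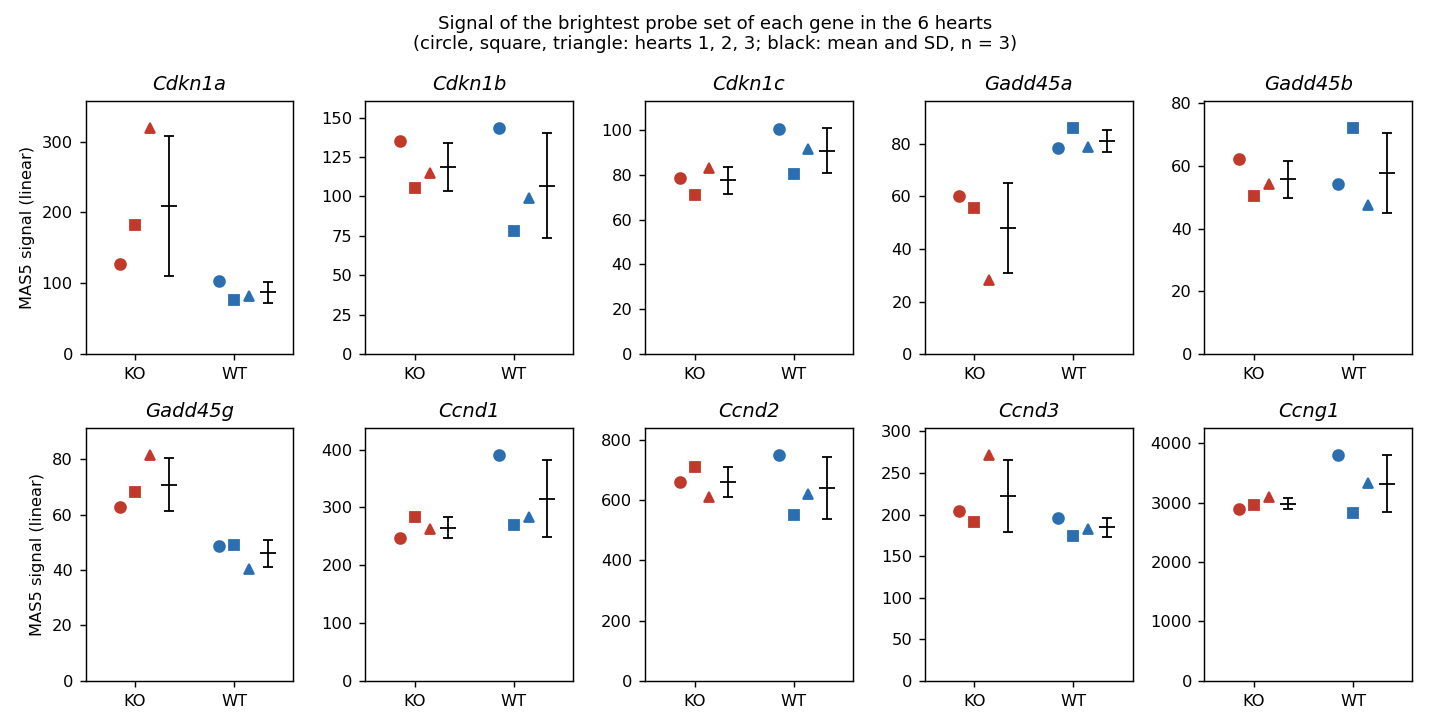
MAS5 signal (linear, from 0) of the brightest probe set of each of the 10 genes in the KO hearts (red) and the WT hearts (blue), with mean and SD (n = 3) in black. Cdkn1a and Gadd45g have all KO hearts above all WT hearts, Gadd45a has all KO hearts below, and the other 7 genes overlap. Over all genes tested 6.81% had KO above WT without overlap and 9.41% had KO below.

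Of the GADD45 genes Gadd45a fell, and Gadd45g and Gadd45b did not pass the test. Gadd45a gave 60, 55.5 and 28.2 in KO, against 78.4, 86.1 and 79 in WT. All KO libraries lay below all WT hearts, and KO 3, the library with the most Cdkn1a signal, had the least Gadd45a. The KO mean of 47.9 ± 17.2 was 59.0% of the WT mean of 81.2 ± 4.28 (SD, n = 3 each). Gadd45a fell by 0.64 on the log2 scale (SE 0.185, 95% interval -1.01 to -0.27) and was past the threshold as designed. It did not pass without KO 3 (-0.40), without WT 1 (-0.66), without WT 2 (-0.61) or without WT 3 (-0.66). It also did not pass under any of 4 scalings of the arrays to a common level, where the difference lay between -0.64 and -0.63. The difference hardly moved there, and its SE was 0.186 to 0.210. Those fits shared less variance between genes, with 6.79 to 10.2 prior degrees of freedom, against 45.6 as designed. It passed without KO 1, at -0.79, in a fit that called 2.33% of all genes higher and 1.61% lower. With 1 probe set, there was no second reading of this gene.

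Gadd45g gave 62.8, 68.2 and 81.6 in KO, against 48.6, 48.9 and 40.5 in WT. All KO libraries lay above all WT hearts, and KO 3 was again the highest. The means were 70.9 ± 9.68 in KO and 46 ± 4.77 in WT (SD, n = 3 each), a ratio of 1.54. The log2 difference was 0.48 (SE 0.174, 95% interval 0.13 to 0.83) and did not pass the threshold over all genes, as designed or in any of 19 alternatives, in which it ranged from 0.29 to 0.61. Gadd45b gave 62.2, 50.5 and 54.3 in KO and 54.1, 72.1 and 47.4 in WT, with a difference of -0.03 (SE 0.177, 95% interval -0.39 to 0.32). The WT signals ran from below to above the KO signals, and its other 2 probe sets were at -0.10 and -0.14.

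No D-type cyclin passed the test. Ccnd1 gave 247.7, 283.9 and 263.5 in KO, against 391.1, 269.9 and 283.5 in WT. WT 1 alone lay clear of the other hearts, and the difference of -0.22 (SE 0.166) was -0.06 without it. The other 2 Ccnd1 probe sets were at -0.36 and -0.32, and in the first of them all KO signals (173.1 to 203) lay below all WT signals (204.4 to 334.2). Ccnd3 gave 204.3, 190.8 and 271.9 in KO, against 196.4, 174.7 and 182.5 in WT, a difference of 0.24 (SE 0.169, 95% interval -0.10 to 0.58). KO 3 was highest and WT 1 lay within the KO range. Its other 2 probe sets, both at 20.4 or less in every heart, were at -0.11 and 0.11.

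Ccnd2 had the most probe sets, 7 in all. Its brightest gave 659.8, 710.1 and 611.6 in KO, against 750.3, 549 and 620.7 in WT, with a difference of 0.05 (SE 0.151, 95% interval -0.25 to 0.36), which was 0.17 without WT 1. The groups overlapped. The other 6 probe sets ran from -0.15 to 0.45, and the one at 0.45 was dim, with 40, 23.1 and 26 in KO against 22.8, 14.4 and 14.5 in WT. The probe set at -0.15, of the kind whose name marks probes shared with other transcripts, was the only one of the 7 with a negative difference.

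Ccng1, the other gene with a p53 site in its window, did not pass the test. Its brightest probe set gave 2899.9, 2957.4 and 3092.8 in KO, against 3797.2, 2829.4 and 3336.9 in WT. The 3 KO signals lay close together inside the WT range. The difference was -0.14 (SE 0.117, 95% interval -0.38 to 0.09) and -0.043 without WT 1, and the other 2 probe sets were at -0.11 and -0.21.

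**Figure D2:**
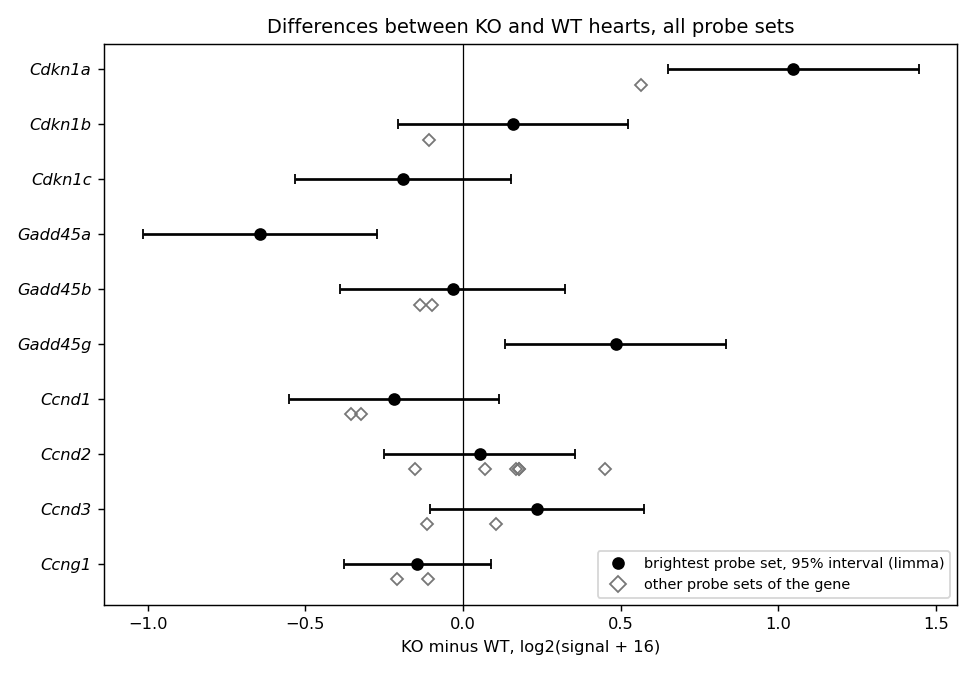
Differences between KO and WT hearts on the log2(signal + 16) scale for all 26 probe sets, with the brightest of each gene as a filled point with its 95% interval from limma and the others as open diamonds. The intervals of Cdkn1a, Gadd45a and Gadd45g leave out 0 before adjustment for the number of genes.

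All 10 genes passed the filter on dim probe sets. Of them 1 was past the threshold as higher, against 1.78% of all genes, and 1 as lower, against 1.18%. The signals of KO and WT did not overlap for 3 of the 10, against 16.2% of all genes. In 2 of the 3 KO lay above WT, against 6.81% of all genes, and in 1 below, against 9.41%. The group was chosen on this contrast, so nothing is read from these shares. The median difference was 0.01 over the 10 genes and -0.03 over all genes tested, with 5 genes positive and 5 negative. WT 1 gave the highest WT signal for 7 of the 10 genes as deposited, and for 3 after the arrays were scaled to a common trimmed mean. After that scaling the groups were also separate for Ccnd3, with KO above WT (200.3 to 263.8 against 167.6 to 196.7), and for Cdkn1c, with KO below WT (74.7 to 80.4 against 85.7 to 98.8). That made 5 of 10, against 23.8% of all genes under the same scaling, 3 with KO above (11.6% of all genes) and 2 with KO below (12.2%).

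**Figure D3:**
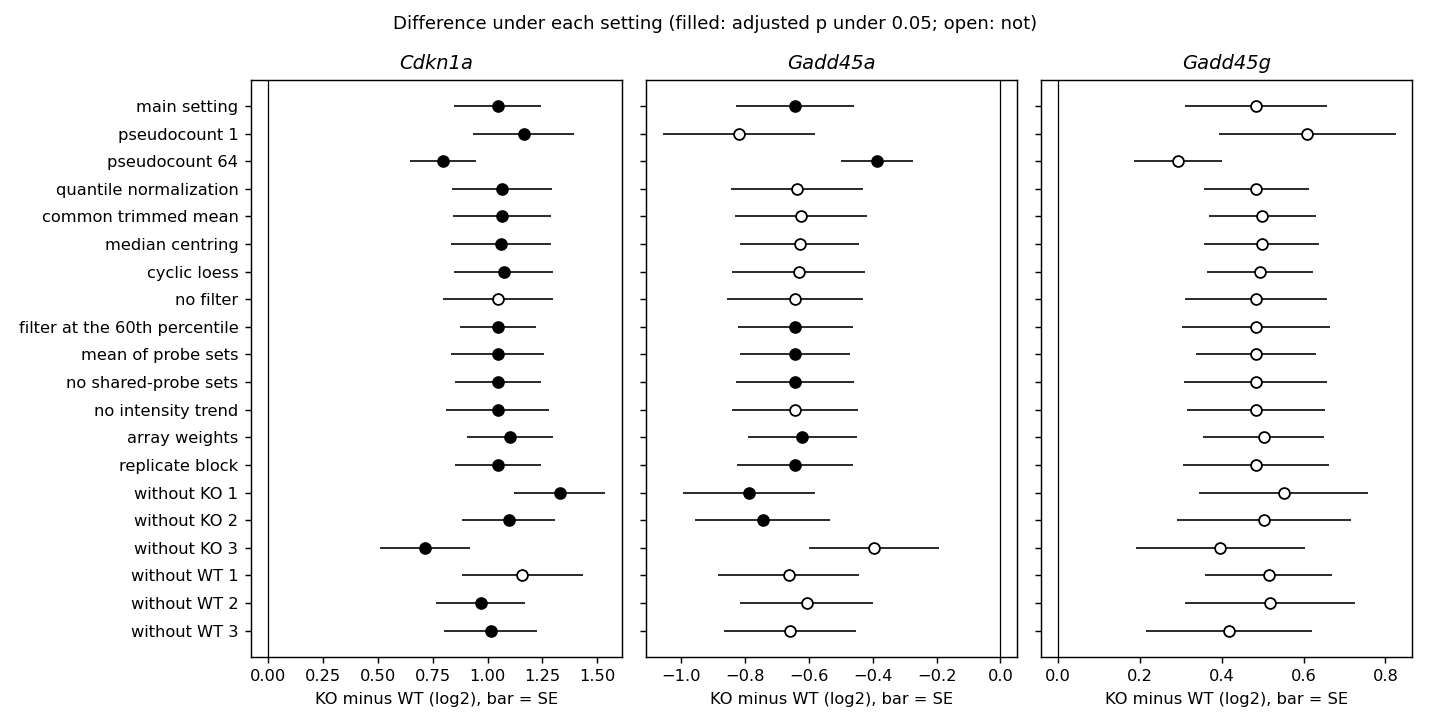
Difference between KO and WT hearts (log2, bars are SE) of Cdkn1a, Gadd45a and Gadd45g as designed and under 19 alternative settings, filled where the adjusted p from limma was under 0.05. Cdkn1a is filled in all but 2 alternatives, Gadd45a is open in 11 and Gadd45g is open in all of them, and none of the 3 genes changes direction.

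The wider growth arrest pathway was described from 7 lists, of which 116 genes were tested. Among these 4 rose, 3 fell and 109 did not pass (limma, adjusted over all genes tested), against 1.78% of all genes higher and 1.18% lower. Of 22 p53 target genes tested, 1 rose, 0 fell and 21 did not pass, with a median of 0.03, and 3 had an unadjusted p under 0.05, against 12.5% of all genes tested. The one that rose was Perp, a p53-induced membrane protein of desmosomes, with 593.9, 799.8 and 1105.7 in KO, against 589.6, 465.1 and 473.6 in WT (log2 difference 0.66, SE 0.165, limma adjusted p = 0.0133). KO 1 and WT 1 were almost equal. Perp did not pass without KO 3 (0.43), without WT 1 (0.76) or without WT 3 (0.61). Phlda3, a p53-induced inhibitor of AKT, was at 0.50 (SE 0.179) and the nuclease gene Aen at -0.42 (SE 0.176). Rrm2b, the p53-induced ribonucleotide reductase subunit, was at -0.26 (SE 0.177). Of these Phlda3 and Rrm2b overlapped between the groups.

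Of the other CDK inhibitors and pocket proteins, 0 of 8 passed in limma and 0 had an unadjusted p under 0.05. Rbl1 was at 0.37 (SE 0.206), and the INK4 genes Cdkn2b, Cdkn2c and Cdkn2d were at 0.30, 0.16 and -0.13. Cdkn2a lay under the filter. Of 17 G1 kinases, cyclin E and E2F genes, 0 passed in limma and 2 had an unadjusted p under 0.05, against 12.5% of all genes. These were Ccnh, the cyclin of the CDK-activating kinase (-0.45, SE 0.159), and the phosphatase gene Cdc25a (-0.40, SE 0.185), both lower in every KO library than in every WT heart. Over all genes tested 9.41% were separated in that direction. Cdk7, the partner of cyclin H, was at 0.21 (SE 0.176), and E2f5 at 0.39 (SE 0.336).

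Of 19 S phase and mitosis genes tested, 0 rose, 1 fell and 18 did not pass, against 1.18% of all genes lower. An unadjusted p under 0.05 was found for 2 of them, against 12.5% of all genes. Negative differences numbered 14 (median -0.20, against -0.03 over all genes tested). Another 8 genes of the list lay under the filter. The summed signal of the list was 604.2 to 703.3 in KO, against 703.6 to 980.3 in WT, with WT 1 the highest. Without Cenpa the sums were 547.1 to 621.9 in KO and 559.2 to 768.7 in WT, and the groups overlapped. Cenpa, the histone H3 variant of centromeres, gave 121.8, 81.4 and 57.1 in KO, against 211.6, 142.8 and 164.4 in WT (log2 difference -0.91, SE 0.188, limma adjusted p = 0.00159). All KO libraries lay below all WT hearts. Without WT 1 Cenpa was at -0.77 and did not pass. Plk1 (-0.48), Rrm2 (-0.38) and Nusap1 (-0.32) had signals of 28.5 or less in every heart and did not pass.

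Of 15 GADD45 partners and stress kinases, 0 passed in limma and 3 had an unadjusted p under 0.05, against 12.5% of all genes. Ddit3, the stress factor CHOP, was at 0.48 (SE 0.173) and Atf4, its upstream activator, at 0.36 (SE 0.164). Gadd45gip1, a mitochondrial ribosome protein that binds GADD45 proteins, was at -0.43 (SE 0.167), and Map3k4, the kinase that GADD45 proteins activate, at -0.29 (SE 0.169).

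Among 22 transcription regulators of Cdkn1a, 2 rose, 0 fell and 20 did not pass (median 0.06). Klf4, an activator of Cdkn1a, gave 310, 244.5 and 471.3 in KO, against 209, 172.7 and 178.3 in WT (log2 difference 0.78, SE 0.179, limma adjusted p = 0.00573). Cebpa, a differentiation factor of fat and liver linked to p21, gave 41.5, 58.5 and 69.8 in KO, against 26.6, 17.8 and 29.3 in WT (log2 difference 0.83, SE 0.189, limma adjusted p = 0.00478). For both genes all KO libraries lay above all WT hearts. Neither passed without KO 3 (Klf4 at 0.53, Cebpa at 0.70) or without WT 1 (0.85 and 0.87). As the mean of its probe sets Klf4 was at 0.45 and did not pass. Egr1, an early growth response factor, was at -0.49 (SE 0.170) and Smad3 at 0.39 (SE 0.173).

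Of 13 quiescence and antiproliferative genes, 1 rose, 2 fell and 10 did not pass (median 0.22). Tsc22d3, the glucocorticoid-induced gene GILZ, rose (log2 difference 0.65, SE 0.162, limma adjusted p = 0.0123). It did not pass without KO 3 (0.53), without WT 2 (0.58) or without WT 3 (0.61), or as the mean of its probe sets (0.50). Cited2, a coregulator that competes with hypoxia-inducible factors, gave 226.6, 139.9 and 124.3 in KO, against 316.5, 315.9 and 265.3 in WT (log2 difference -0.85, SE 0.178, limma adjusted p = 0.00192). Without WT 1 it was at -0.81 and did not pass. Txnip, the thioredoxin-interacting protein, fell as well (-0.84, SE 0.130). Nupr1 was at 0.41 (SE 0.178).

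**Figure D4:**
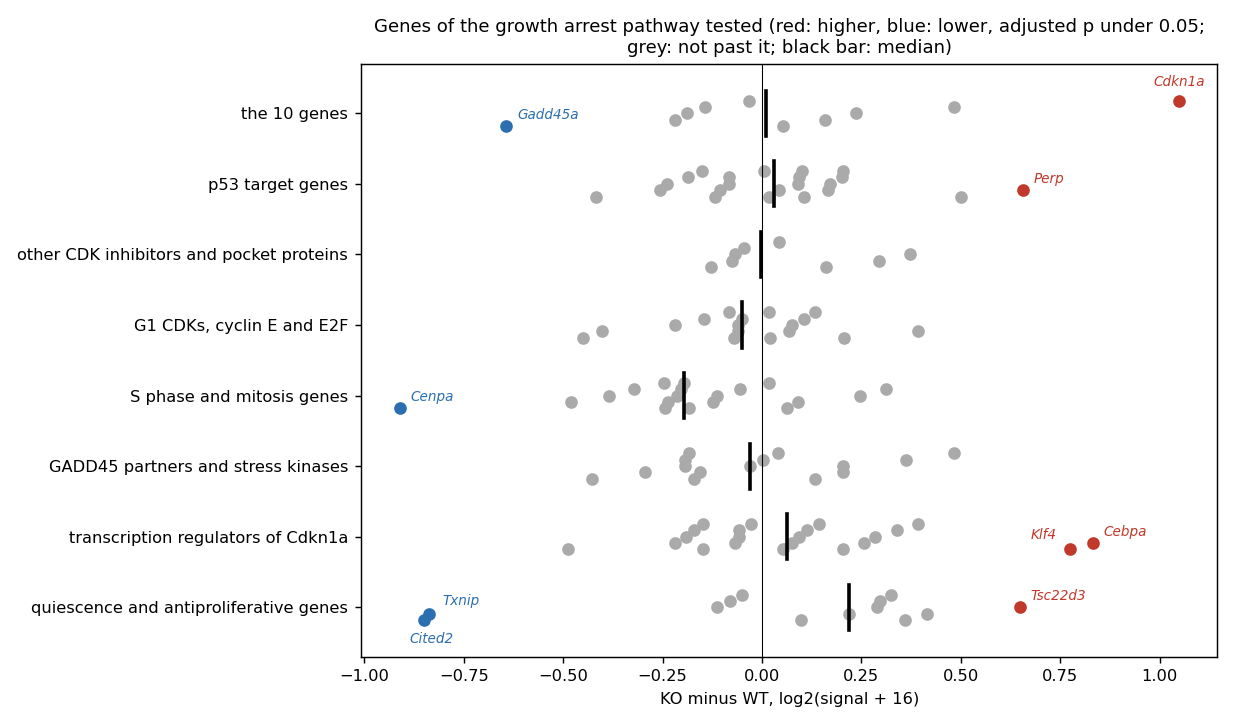
Differences between KO and WT hearts, log2(signal + 16), of the 10 genes and of the tested genes of 7 pathway lists, with the median of each row as a black bar. Named genes were past an adjusted p of 0.05 in limma, 4 of the pathway genes as higher and 3 as lower, and the rest are in grey.

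The 6 genes nearest to Cdkn1a in profile were found by Euclidean distance between centred log2(signal + 16) values over the 6 hearts. They were Cadm4, a cell adhesion molecule (distance 0.30), H2-Ab1, an MHC class II chain (0.32), Ccn4, a matricellular protein (0.36), Efhd2 (0.40), Manf, an endoplasmic reticulum stress protein (0.42), and Trnp1 (0.45), against a median distance of 1.61 over the genes tested. H2-Ab1 gave 120.6, 197.6 and 373.1 in KO, against 108.3, 99.1 and 99.9 in WT, and Cadm4 gave 80.9, 108.3 and 208 in KO, against 79.6, 49.9 and 45.2 in WT. All 6 had KO libraries above all WT hearts, with KO 1 the lowest and KO 3 the highest of the 3, as for Cdkn1a. The same order of the KO libraries held for the summed signal of 6 of the 9 cell type marker lists below. KO 3 also had the highest trimmed mean signal of the KO arrays (63.4). The nearest of the 10 genes was Gadd45g, at 0.99, which ranked 319 among the genes tested. Ccnd3 ranked 877, and Gadd45a, at 2.56, ranked 12870.

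**Figure D5:**
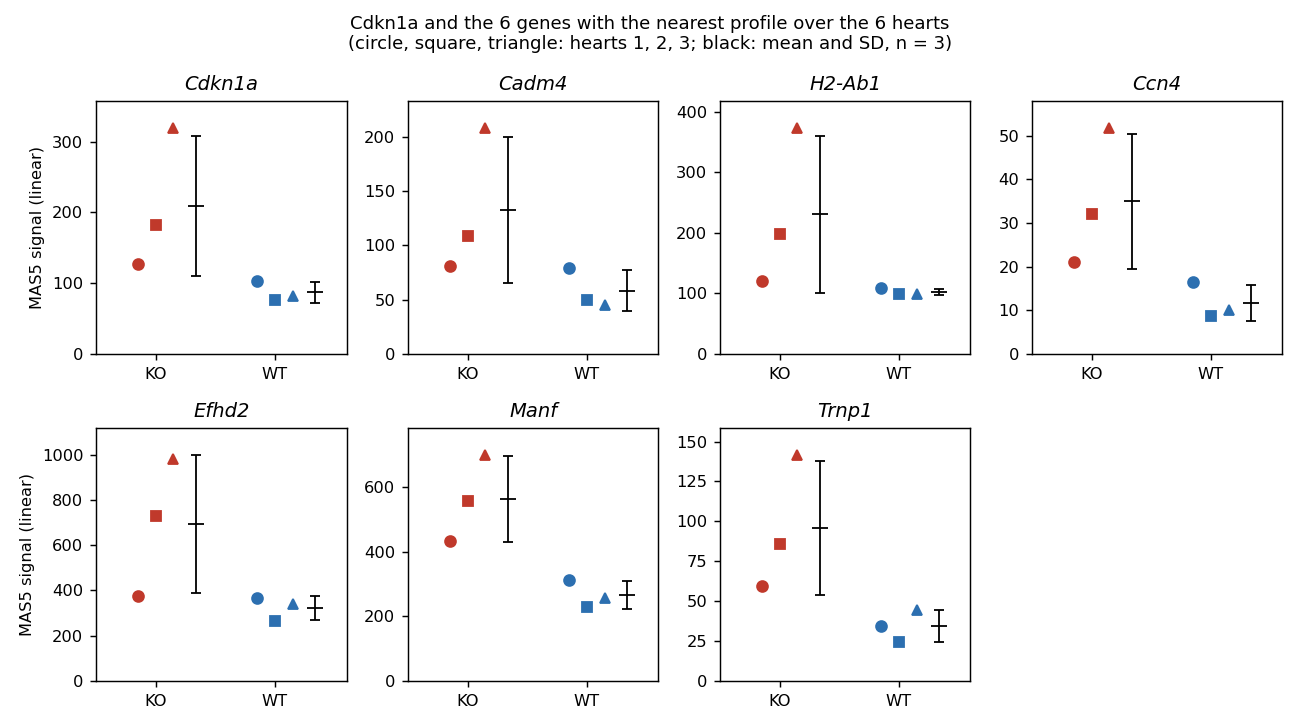
MAS5 signal (linear, from 0) of Cdkn1a and of the 6 genes with the nearest profile, in the KO hearts (red) and the WT hearts (blue), with mean and SD (n = 3) in black. In each of the 7 panels the KO signals order from heart 1 to heart 3 and all lie above the WT signals; these genes were picked for that likeness.

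Markers of some other cell types moved with the same contrast and those of others did not. Over all genes tested 1.78% passed as higher, 1.18% as lower, and 12.5% had an unadjusted p under 0.05. The cardiomyocyte list had 0 of 8 genes past the test, with summed signals of 56165.9 to 58244.8 in KO, against 57019.9 to 63835.3 in WT, and these defining genes of the labelled tissue were bright in all 6 hearts. Of 8 atrial myocyte markers 8 rose, with sums of 14291.7 to 17000.5 in KO, against 3978.3, 3133.8 and 9959.2 in WT 1 to 3, and 4 of the 8 passed without WT 1. Like the other lists, this one was chosen with earlier results of these data known. Of 6 adipocyte markers tested 5 rose, and Lep was below the filter. The list's sums of 3802.8 to 5590.3 in KO, against 3400.1 to 4112.8 in WT, were mostly Fabp4, which did not pass. The 5 that rose summed to 333.2, 1866.2 and 1544.4 in KO, against 80.8, 77 and 99.6 in WT, with KO 2 the highest. Of the 6, 1 passed as higher without WT 1, 2 without KO 2, and 2 under each of the 4 scalings. The fibroblast list had 1 of 8 past the test, but all 8 were positive with an unadjusted p under 0.05 (median 0.42; sums 7794 to 9394.6 in KO, 5852.4 to 7064.7 in WT), and 3 to 4 passed under the 4 scalings. Smooth muscle and pericytes had 2 of 8 higher and 4 at an unadjusted p under 0.05 (7820.2 to 9621.8 in KO, 6644.9 to 7730.3 in WT), with 0 past the test without WT 1. Under the 4 scalings 0 to 1 of these passed as higher. Of 7 leukocyte markers 0 passed in limma, with 0 at an unadjusted p under 0.05 and sums of 1992.3 to 2971.4 in KO, against 1819.7 to 2825.8 in WT. Endothelial markers had 0 of 8 past the test, with 1 at an unadjusted p under 0.05 (1477.3 to 1802.3 in KO, 1316.4 to 1724.7 in WT). Skeletal muscle had 1 of 5 higher and 1 lower (6353.1 to 6894.6 in KO, 6977.2 to 8431.3 in WT), and blood cells 0 higher and 1 lower of 3 (721 to 982.9 in KO, 673.3 to 1110.4 in WT). The higher skeletal muscle call and the lower blood call were lost under each of the 4 scalings. No marker was listed at a signal of 0 in any heart. The part of these cells in the signals of Cdkn1a, Gadd45a and Gadd45g was not tested.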

How the data were processed

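Whole hearts of 3 mice labelled KO and 3 WT mice were measured on 1 array each. The authors deposited linear signal intensity values, 1 per probe set, made with MAS5 per the submitters' processing notes. The MAS5 version, its scaling target and its detection calls are not known here, so dim signals could not be told from background. Trimmed means differed between arrays, so the intensity values were not on a common level. They were kept as deposited. Log2(signal + 16) was computed here, probe sets were kept if their mean log2 value was at or above the 40th percentile of non-control probe sets (a signal of 8.17), and the brightest per gene was used, which left 12946 of 18193 genes. The KO and WT hearts were compared in limma 3.58.1, run in R 4.3.3, by lmFit and eBayes with the intensity trend. Tests were two-sided, p-values were adjusted by Benjamini-Hochberg over all genes tested, and the threshold was 0.05. The trend fit shared variance between genes (45.6 prior degrees of freedom), so a gene's own spread counts little. The alternatives shared it to other degrees, from 6.79 prior degrees of freedom with quantile normalization to no finite limit without KO 1. A call can therefore change between settings with little change in the difference. The script was tested on simulated data. With 3 against 3 hearts an exact permutation test cannot go below p = 0.10, and none was run. The labels name separate mice, so hearts were taken as the replicates. The p-values rest mostly on the variance shared between genes and little on a gene's own spread between these hearts. No 2 arrays were identical. The array header of WT 1 holds a comment with a different WT mouse number, and its title was followed.

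The 10 genes, the lists and the alternatives were chosen with earlier results of these data known. Text names the 10 genes, Esrra, up to 4 genes of smallest p per pathway list and the 6 genes nearest to Cdkn1a, skipping clone and predicted names. Of 134 pathway genes 128 had a probe set of their own symbol; the others, and probe sets with several symbols (932) or none (9160), were not analysed here. A planned comparison of protein sequences was not run. Promoters and coordinates come from RefSeq tables of GRCm38.p6.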

Additional observations from a re-analysis of the deposited data

How the results depend on the processing

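Over 19 alternatives the direction of Cdkn1a, Gadd45a, Gadd45g, Cdkn1c, Ccnd1, Ccnd3 and Ccng1 did not change. Directions turned for genes not past the test: with single hearts left out, Ccnd2 ranged from -0.049 (without WT 2) to 0.17 (without WT 1), Cdkn1b from -0.015 (without WT 2) to 0.36 (without WT 1) and Gadd45b from -0.14 to 0.10 (without WT 2; 0.019 without KO 2). Cdkn1a did not pass with no filter (1.05) or without WT 1, and ranged from 0.72 to 1.33 with single hearts left out; Esrra ranged from -3.39 to -2.12 and did not pass without WT 1. By limma, 0 of the 10 genes were higher with no filter (2 at an unadjusted p under 0.05), and 0 to 1 with single hearts left out. Lower genes numbered 0 with a pseudocount of 1, quantile normalization, a common trimmed mean, median centring, cyclic loess, no filter and no intensity trend (1 each at an unadjusted p under 0.05), and 0 to 1 with single hearts left out. The cause was not tested.

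Over all genes the counts were 48 higher and 18 lower with no filter, where more genes were tested, 114 and 57 with no intensity trend, and 434 higher with array weights. With single hearts left out they ran from 105 to 301 higher and 22 to 208 lower; the low ends came without WT 1 (105 and 22), with 123 and 78 without KO 3 and 85 lower without KO 2. Pathway genes higher numbered 0 with no filter (13 at an unadjusted p under 0.05), 1 with no intensity trend and 8 with array weights, and 0 to 5 with single hearts left out. Pathway genes lower numbered 1 with no filter and 1 to 3 with single hearts left out. Markers higher numbered 8 with no filter, 10 with no intensity trend and 6 to 17 with single hearts left out. Markers lower numbered 1 with quantile normalization, a common trimmed mean, median centring, cyclic loess and array weights, 0 with no filter and no intensity trend (4 and 2 at an unadjusted p under 0.05), and 0 to 2 with single hearts left out.

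The mice are numbered 1 to 3 in each genotype, with no statement in the labels that equal numbers belong together. Deviations of same-numbered hearts correlated at 0.03, -0.02 and 0.03, and those of differently numbered hearts at -0.08 to 0.06. With 3 hearts per genotype these values cannot show whether equal numbers belong together. With the replicate number as a block Cdkn1a was at 1.05 (SE 0.196), 237 genes were higher and 175 lower, and the calls for the 10 genes did not change. The number of arrays and the unknown detection calls limit all results on dim probe sets, such as the second one of Cdkn1a.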
